A study of Rattus norvegicus with 218 samples.

Results

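The neuropeptide precursor genes Cartpt and Cck were examined in rat neurons from the DMV (dorsal motor nucleus of the vagus), a brainstem cell group of parasympathetic motor neurons. They were taken as the rows of the deposited table with these gene symbols, which gave 2 of 165 genes with 1 assay each. Chat, the gene of the acetylcholine synthesizing enzyme, was followed beside them. The study asked how DMV neurons respond to remote ischemic preconditioning (RIPC), a brief loss of blood flow to the hind limbs that protects the heart. All animals were adult male Sprague Dawley rats. The naive rats had no surgery. The sham and RIPC rats both received ketamine and xylazine, and in both groups the femoral vessels of each leg were exposed, but the vessels were tied off and released only in the RIPC rats. Surgical animals were collected 2.5 hours after reperfusion. Neurons stained for NeuN were taken by laser capture from the left or the right DMV, singly or in pools of 2 to 8 cells, and assayed by multiplex RT-qPCR.

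Cartpt encodes the precursor of the cocaine- and amphetamine-regulated transcript (CART) peptides, which act in the control of feeding, stress responses and autonomic output. Cck encodes the precursor of cholecystokinin, a gut hormone of satiety that is also a widespread neuropeptide of the brain and acts through the receptors encoded by Cckar and Cckbr. Vagal motor neurons of the DMV are mostly cholinergic and send acetylcholine to ganglia of the gut and other viscera, while DMV interneurons use GABA, which Gad1 and Gad2 enzymes make. Neuropeptides are packed beside such classical transmitters and modulate their effect.

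Each measurement is a threshold cycle (Ct), the PCR cycle at which product crossed a fixed signal, so abundant transcripts give low values. Where no Ct was recorded, the transcript was taken as not detected. Samples in which 25% or more of the assays gave a Ct were kept, a looser limit than the one the methods state. This left 186 of 213 samples from 10 animals, made up of 98 single neurons and 88 pools. The kept samples came from 3 naive rats (57 single neurons and 24 pools), 4 sham rats (16 and 46) and 3 RIPC rats (25 and 18). The labels were followed for the number of sham rats, of which the methods count fewer. Naive replicate 3 alone gave 54 of the single neurons. Depth per sample, given as the number of assays with a value, lay between 43 and 149 (median 79). The neuronal genes Camk2a, Scn2a and Rgs4 were detected in 95, 94 and 85 of the 98 single neurons. Gfap, a marker of astrocytes and the only glial marker of the chosen lists on the panel, was detected in 79 of them, and its values stand beside the results it moved with. The label of 1 single neuron of RIPC replicate 3 carried a title of the form used for RIPC replicate 2, and this neuron had none of Cartpt, Cck and Chat.

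Single neurons that had been run again showed how far a call could move. Among 5 such neurons, Cartpt had a value in both runs of 1 neuron, in neither run of 2 neurons and in the second run alone of the other 2. The neuron with Cartpt in both runs had a Ct of 24.2 in the first run and 15.8 in the second. Cck was without a value in both runs of 4 neurons and appeared in the second run alone of the other, at a Ct of 20.6. An absent value in a single neuron was therefore a call that a repeat run changed in some cases for each peptide.

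Over the kept samples, Cartpt was detected in 106 of 186 (57.0%) and Cck in 43 (23.1%). The median gene of the panel was detected in 50.5% of these samples, so Cartpt lay near the middle of the panel and Cck in its lower part. Cartpt ranked 76th by the number of samples with a value and Cck 115th of 165 genes. Where it was detected, Cartpt had a Ct of 9.50 to 26.5 with a median of 14.9, and 5 of its 107 values over all samples lay above 20. For Cck the Ct lay between 14.6 and 24.0 (median 17.1), and 4 of 43 values lay above 20. Ct values of different assays are not on a shared scale and were not set against each other.

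Both peptides were found in single neurons, Cartpt in 43 of 98 (43.9%, Wilson 95% interval 34.5% to 53.7%) and Cck in 22 of 98 (22.4%, 15.3% to 31.7%). Cartpt was more frequent in pools, at 63 of 88 (71.6%, 61.4% to 80%), while Cck was in 21 of 88 pools (23.9%, 16.2% to 33.7%). The overall shares of Cck mix groups with unlike counts, though no contrast of its share between groups passed after adjustment. Cck was in 15 of 57 single neurons and 9 of 24 pools in naive, 0 of 16 and 11 of 46 in sham, and 7 of 25 and 1 of 18 in RIPC rats. By number of cells, Cartpt had a value in 8 of 12 samples of 2 cells, 13 of 14 of 3 cells, 15 of 23 of 4 cells and 24 of 36 of 5 cells. Cck had a value in 3 of 12, 5 of 14, 2 of 23 and 8 of 36 of the same samples. Each gene had a value in 2 of 2 samples of 6 cells and in 1 of 1 of 8 cells. From 2 to 5 cells neither share rose steadily. If the cells of a pool were independent draws from the single neurons of the same treatment group, 89.6% of pools would hold Cartpt and 33.1% would hold Cck, which lies 18.0 and 9.21 percentage points above the shares seen. For Cck this sum hides opposite signs. With no Cck in sham single neurons, 0 sham pools were computed and 11 seen, while in naive rats 16.5 were computed and 9 seen, and in RIPC rats 12.6 and 1. The computed 0 was fixed by 0 of 16 sham single neurons, a count that does not exclude a share above 0. The sign in sham rats and the sum of 33.1% therefore rest on that count. A shortfall in the sum over groups was common to the panel, since 113 of 122 genes detected in 10% to 95% of single neurons fell below their computed share, by a median of 14.3 points. These intervals and shares cover counting error only.

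Cartpt was present in pools of every animal, and treatment did not separate the animals. Among naive rats it was detected in 1 of 3 pools of replicate 1 (33.3%), 8 of 10 pools of replicate 2 (80%) and 10 of 11 pools of replicate 3 (90.9%). The shares in sham rats were 71.4% of 7 pools, 54.5% of 11, 90.9% of 11 and 70.6% of 17 in replicates 1 to 4. In RIPC rats they were 25% of 8 pools, 87.5% of 8 and 100% of 2. The 3 groups overlapped over nearly their whole range. Group means were 68.1% ± 30.6 (SD, n = 3) in naive, 71.9% ± 14.9 (n = 4) in sham and 70.8% ± 40.2 (n = 3) in RIPC animals. The differences were 3.79 points for sham minus naive (SE 18.1, limma adjusted p = 0.962), 2.75 for RIPC minus naive (SE 19.3, adjusted p = 0.996) and -1.03 for RIPC minus sham (SE 18.1, adjusted p = 0.994). Each of these signs turned under some of the other settings tried. In such small samples, fewer cells with a transcript and less transcript per cell cannot be told apart.

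**Figure D1:**
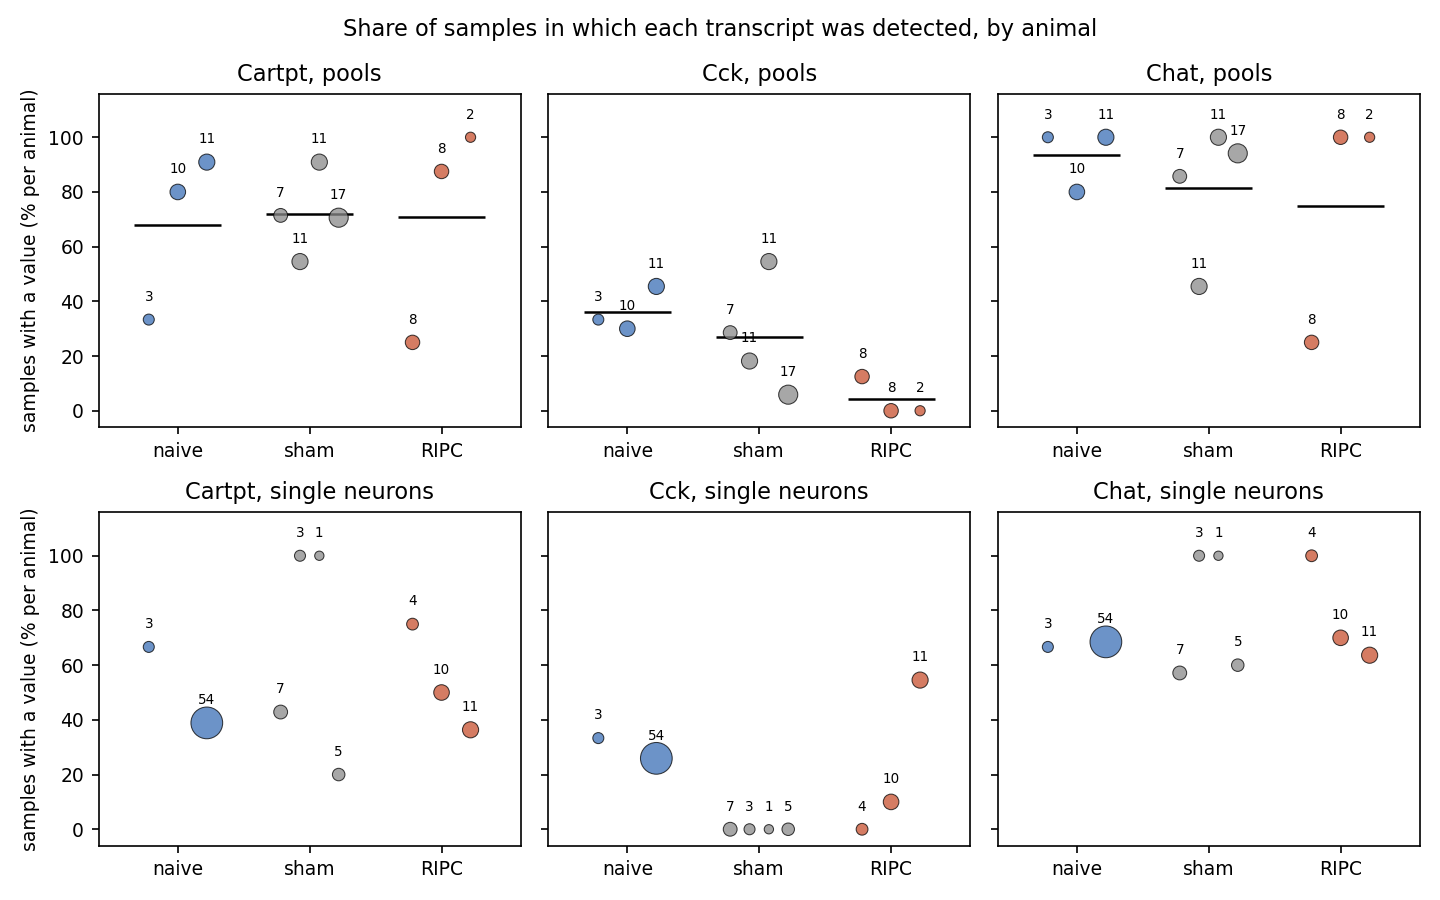
Share of samples (%) with a value for Cartpt, Cck and Chat in pools (top row) and single neurons (bottom row) of naive, sham and RIPC rats. Each point is 1 animal, its area grows with the number of samples, which is printed above it, and the lines in the top row are group means. Cck in pools was at 12.5%, 0% and 0% in the RIPC animals against 30% to 45.5% in the naive animals, while in single neurons the highest Cck share, 54.5%, was in RIPC replicate 3.

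Cck in pools was the member with the wider gap between groups, and it did not pass the test. Among naive rats it was detected in 1 of 3 pools of replicate 1 (33.3%), 3 of 10 pools of replicate 2 (30%) and 5 of 11 pools of replicate 3 (45.5%). Sham rats had Cck in 28.6%, 18.2%, 54.5% and 5.88% of their pools. RIPC rats had it in 1 of 8 pools of replicate 1 (12.5%), in 0 of 8 pools of replicate 2, which allows a share of up to 37.5% in that animal when a count of 0 is taken to allow 3, and in 0 of 2 pools of replicate 3. Every RIPC animal lay below every naive animal, and the sham animals spanned nearly the whole range. Of the 130 genes tested by share, Cck was the only 1 (0.769%) with every RIPC animal below every naive animal. This order rests on counts of 0 of 8 and 0 of 2 pools in RIPC replicates 2 and 3. The limit of 37.5% for RIPC replicate 2 lies above the shares of naive replicates 1 and 2. The mean was 36.3% ± 8.13 (SD, n = 3) in naive, 26.8% ± 20.7 (n = 4) in sham and 4.17% ± 7.22 (n = 3) in RIPC animals.

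The difference of RIPC minus naive was -32.1 points (SE 14.8), with p = 0.0433 before and 0.996 after adjustment in limma across the 130 genes. An exact two-sided permutation test over animals gave p = 0.1, which is the smallest that 3 against 3 animals allow. RIPC minus sham was -22.6 points (SE 13.8, adjusted p = 0.994; exact permutation p = 0.114), and sham minus naive was -9.47 points (SE 13.8, adjusted p = 0.932; exact permutation p = 0.429). No gene passed an adjusted p of 0.05 in limma in any of these 3 contrasts of the share (0 of 130, 0.0% each). At an unadjusted p under 0.05 there were 2 genes for sham minus naive, 4 for RIPC minus naive and 1 for RIPC minus sham. Fisher's exact test, which counts pools of 1 animal as independent and so gives p-values that are too small, called 0 genes after adjustment, with 7, 8 and 10 at an unadjusted p under 0.05.

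The number of cells and the yield of the pools were set beside these shares. The median pool held 4 cells in naive, 5 in sham and 4 in RIPC animals. The median number of assays with a value per pool was 94.5, 100.5 and 85. By animal it was 48, 90 and 98 in naive, 102, 87, 99 and 105 in sham, and 56.5, 104 and 93.5 in RIPC animals, so that RIPC replicate 2, with no Cck in 8 pools, was among the animals of highest yield. Pools with Cck had values for 88 to 134 other assays, and no pool of lower yield had Cck. The limit stated in the methods leaves out samples with most assays undetected. Among pools with at least 50% of the assays, Cck was present in 9 of 19 pools from naive, 11 of 35 from sham and 1 of 9 from RIPC rats. At that limit RIPC replicate 1 and naive replicate 1 kept 1 pool each, both with Cck, and the groups overlapped (RIPC minus naive -29.4 points, adjusted p = 0.909, exact permutation p = 0.6). RIPC minus sham was then -2.26 points and sham minus naive -27.2 points. Gfap was in 21 of 21 pools with Cck and 47 of 67 without it. The part of yield and of Gfap in the Cck shares was not tested.

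Single neurons did not show the same order of the groups for Cck. It was detected in 1 of 3 and 14 of 54 single neurons of naive replicates 2 and 3. In sham rats it was detected in none of the single neurons, at 0 of 7, 0 of 3, 0 of 1 and 0 of 5 in replicates 1 to 4. In RIPC rats it was detected in 0 of 4, 1 of 10 and 6 of 11 single neurons of replicates 1 to 3. RIPC replicate 3, with no Cck in its 2 pools, thus had the highest share of single neurons with Cck of all animals. Over single neurons alone, RIPC minus sham was 21.5 points, opposite in sign to the pools (adjusted p = 0.847; exact permutation p = 0.143), and RIPC minus naive was -8.11 points (adjusted p = 0.999; exact permutation p = 0.8). Sham minus naive was -29.6 points over single neurons (adjusted p = 0.795; exact permutation p = 0.0667, the smallest that these animals allow). The difference between pools and single neurons was not itself tested.

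Cartpt in single neurons spread widely over animals, as it did in pools. It was detected in 2 of 3 and 21 of 54 neurons of naive replicates 2 and 3. The counts in sham replicates 1 to 4 were 3 of 7, 3 of 3, 1 of 1 and 1 of 5. In RIPC rats they were 3 of 4, 5 of 10 and 4 of 11. The animals of the 3 groups overlapped.

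Levels were compared as minus Ct, centred per sample on the median over the panel's 35 most often detected genes, so that 1 cycle is about a doubling of transcript and higher values mean more of it. Cartpt in pools had mean levels of -1.38 and -1.28 cycles in naive replicates 2 and 3 and a single value of 0.51 in naive replicate 1, which was left out of the test as a lone pool. The sham means were -2.59, -2.12, -2.22 and -2.36 cycles. The RIPC means were -2.32, -1.56 and 0.45 cycles, over 2, 7 and 2 pools. All 4 sham animals lay below both naive animals tested, and the RIPC animals reached from the sham values to above the naive ones. Of 99 genes tested by level, 4 (4.04%) had every sham animal below every naive animal. Cartpt met this with 2 naive animals, while genes such as Chat had 3, which is a stricter condition.

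Sham minus naive was -0.99 cycles for Cartpt (SE 0.74, limma adjusted p = 0.984). The exact permutation p of 0.0667 is the smallest that 4 against 2 animals allow. This gap rested on late values. The lowest Cartpt levels in pools were -12 in sham replicate 2 and -11.5 in sham replicate 3, and with Ct values above 20 left out the difference was 0.01 cycles. The difference was 0.18 cycles for RIPC minus naive (SE 0.77, adjusted p = 0.956) and 1.18 cycles for RIPC minus sham (SE 0.65, adjusted p = 0.977; exact permutation p = 0.0857). At the 50% limit on assays, sham minus naive was -0.0644 cycles. In single neurons Cartpt levels ran from -12.2 to 1.13 cycles in 23 naive neurons, from -3.28 to 1.53 in 8 sham neurons and from -5.61 to 1.55 in 12 RIPC neurons. Over single neurons alone, sham minus naive was 1.14 cycles (adjusted p = 0.740) and RIPC minus sham -1.41 cycles (adjusted p = 0.552), each opposite in sign to the pools. No gene passed in limma in the contrasts of the level (0 of 99, 0.0% each), with 0, 4 and 3 genes at an unadjusted p under 0.05 for sham minus naive, RIPC minus naive and RIPC minus sham. The methods' t-test over pools also counts pools of 1 animal as independent, and so gives p-values that are too small. It called 0, 1 and 0 of 132, 126 and 133 genes after adjustment, with 11, 14 and 12 at an unadjusted p under 0.05.

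**Figure D2:**
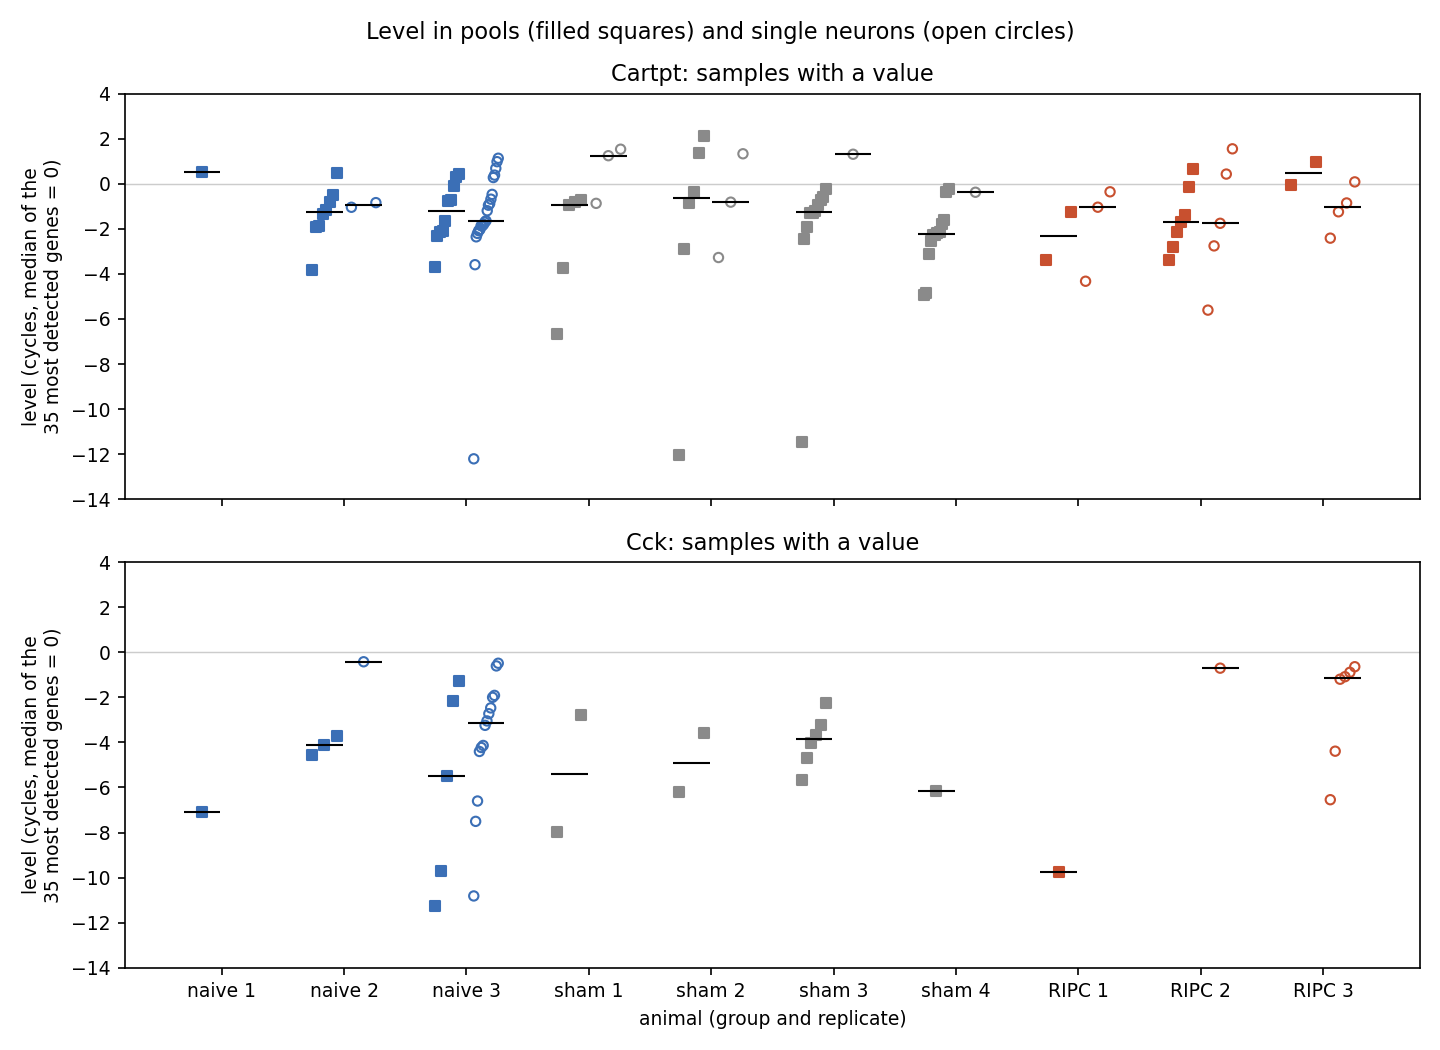
Level (cycles) of Cartpt (top) and Cck (bottom) in every sample with a value, by animal, with pools as filled squares, single neurons as open circles and short lines at the median of each set. The lowest Cartpt pools were at -12 and -11.5 cycles in sham replicates 2 and 3, and Cck in RIPC pools was a single value of -9.76 cycles.

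Cck in pools could be compared by level between sham and naive rats only. The mean levels were -4.13 cycles over 3 pools and -5.98 over 5 pools in naive replicates 2 and 3. They were -5.38, -4.91 and -3.93 cycles over 2, 2 and 6 pools in sham replicates 1 to 3. The 2 groups overlapped, with sham minus naive at 0.32 cycles (exact permutation p = 0.8, smallest possible 0.1). The lone values were -7.09 in naive replicate 1, -6.15 in sham replicate 4 and -9.76 in RIPC replicate 1. In single neurons, Cck levels ran from -10.8 to -0.42 cycles in 15 naive neurons and from -6.54 to -0.64 in 7 RIPC neurons, with medians of -3.05 and -1.09.

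The 2 sides of the DMV were set against each other in 9 animals with at least 2 kept samples on each side, over single neurons and pools together. Cartpt was detected in 61.5% ± 18.7 (SD, n = 9) of samples on the left and 63.4% ± 20.9 on the right. Left minus right ran from -25 points in RIPC replicate 2 to 45.8 in sham replicate 1, and was below 0 in 6 animals and above it in 3. The mean difference was -1.93 points (SE 6.66, adjusted p = 0.977; exact sign-flip permutation p = 0.809).

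Cck was detected in 15.1% ± 18.2 (SD, n = 9) of samples on the left and 30.3% ± 23.1 on the right. Left minus right was -66.7 points in naive replicate 2, where 0 of 7 left and 4 of 6 right samples had Cck. It was -28.6 in sham replicate 2, -23.8 in RIPC replicate 3, -16.7 in RIPC replicate 1, -10 in sham replicate 4 and -3.98 in naive replicate 3. It was 0 in sham replicate 3, 4.17 in sham replicate 1 and 8.33 in RIPC replicate 2. The share of Cck was thus lower on the left in 6 of 9 animals, at a mean of -15.2 points (SE 6.79, unadjusted p = 0.0331). It did not pass over all genes (adjusted p = 0.880; exact sign-flip permutation p = 0.0625). Of 133 genes tested by side, 15 (11.3%) were lower on the left in at least 6 of the 9 animals, and none passed in limma (0.0%), with 6 at an unadjusted p under 0.05. Without naive replicate 2 the mean difference was -8.82 points (exact permutation p = 0.125). The median number of assays with a value was 79 on the left and 75 on the right. A dependence of the side differences in share on treatment was not shown. The moderated F in limma gave p = 0.214 for Cartpt and 0.305 for Cck (adjusted 0.997 each). For Chat it gave 0.0252 (adjusted 0.997). With 9 animals over the 3 groups, this test could not exclude such a dependence.

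**Figure D3:**
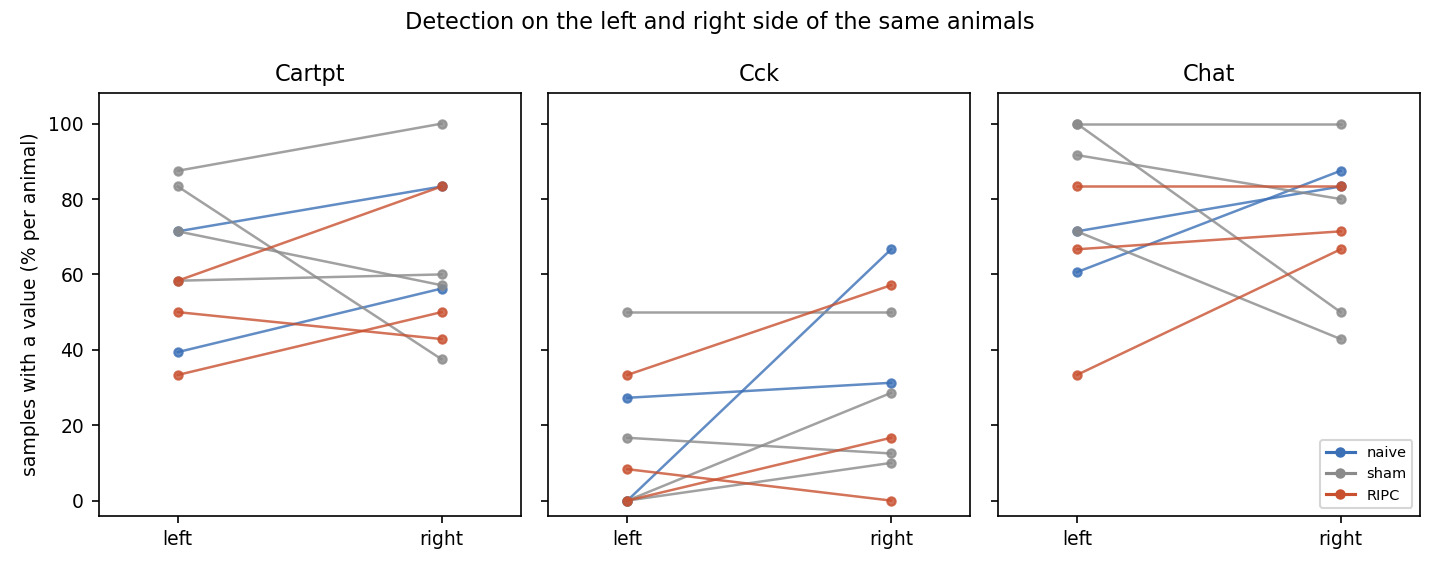
Share of samples (%) with a value on the left and right side of the DMV, single neurons and pools together, for 9 animals joined by lines and coloured by group. Cck was lower on the left in 6 animals and higher in 2, with the steepest line in naive replicate 2 from 0% to 66.7%, and Cartpt was lower on the left in 6 animals and higher in 3.

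By level, left minus right for Cartpt was 0.51 cycles over 9 animals (SE 0.59, limma adjusted p = 0.930). Sham replicate 2 stood apart at 5.27 cycles, and without it the difference was -0.09. That value took in the right pool at a Ct of 26.5, and with Ct values above 20 left out it was 2.81 cycles, a setting chosen after the data were seen, with a mean over the 9 animals of 0.39 (exact permutation p = 0.434). In that setting the other animals lay between -1.09 cycles in sham replicate 4 and 2.09 in sham replicate 1. For Cck only 3 animals had at least 2 samples with a value on each side, and the difference was -0.23 cycles (SE 0.87, adjusted p = 0.949). None of 123 genes passed by level (0.0%), with 4 at an unadjusted p under 0.05.

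A single neuron shows whether the 2 peptides share a cell, which a pool cannot. Of the 98 single neurons, 7 had both Cartpt and Cck, 36 had Cartpt without Cck, 15 had Cck without Cartpt and 40 had neither. With calls independent of each other, 9.65 neurons would have had both. Cck was detected in 16.3% of neurons with Cartpt (Wilson 95% interval 8.12% to 30%) and in 27.3% of those without it (17.3% to 40.2%). The phi coefficient, a correlation of the detected calls that is 0 when they are independent, was -0.13. Among 121 genes detected in 10% to 95% of single neurons, only 3 had a lower phi with Cartpt than Cck had. In pools the pairing had the other sign, with Cck in 19 of 63 pools with Cartpt and 2 of 25 without it (phi 0.23, beside a median of 0.22 over all genes). Per animal, the difference in pools had a mean of 19.2 points ± 36.5 (SD, n = 5) and was above 0 in 4 of 5 animals (exact sign-flip permutation p = 0.312). The median yields of these 4 classes of single neurons, in the order above, were 67, 71.5, 71 and 68 assays with a value. In naive replicate 3 alone they were 121, 70, 73 and 72. The neurons with both peptides reached 105, 121 and 149 assays, at a median of 67. In pools the medians were 106, 99, 103 and 62. The part of yield in this pairing was not tested.

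The 7 neurons with both peptides came from 3 animals, 3 from naive replicate 3, 1 from naive replicate 2 and 3 from RIPC replicate 3. For 1 of those from naive replicate 3, with 121 assays, both peptides had a value in its second run alone. In naive replicate 3 alone, Cck was found in 3 of 21 neurons with Cartpt and 11 of 33 without it. In RIPC replicate 3 the order was the other way, with Cck in 3 of 4 neurons with Cartpt and 3 of 7 without it. Taken per animal, Cck with minus without Cartpt was -19.0 points in naive replicate 3, 0 in sham replicate 1, -20 in RIPC replicate 2 and 32.1 in RIPC replicate 3. Sham replicate 1 had no Cck in any of its 7 single neurons, so its value could only be 0, and 3 animals bear on the question. The mean was -1.73 points ± 24.4 (SD) over the 4 animals and -2.30 ± 29.8 without sham replicate 1. The exact sign-flip permutation p was 1 in both cases, where the smallest possible is 0.25.

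**Figure D4:**
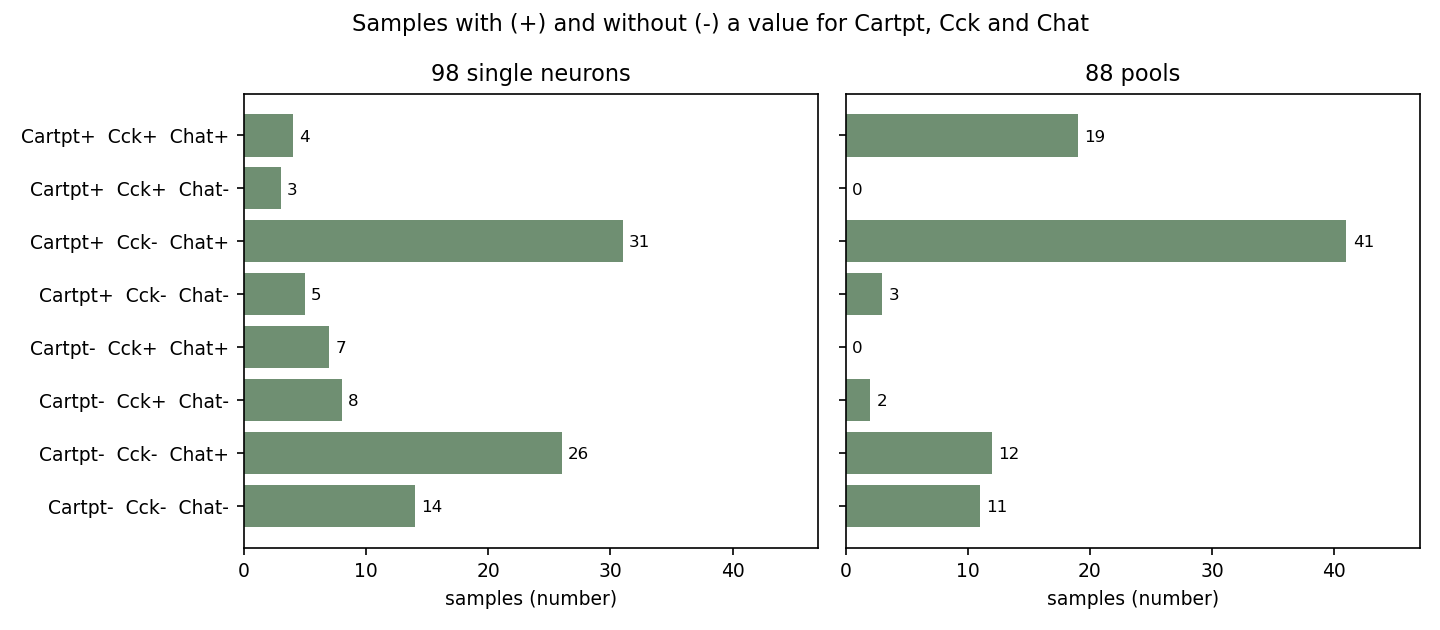
Number of samples in each of the 8 combinations of Cartpt, Cck and Chat calls in 98 single neurons (left) and 88 pools (right). The most frequent class in both was Cartpt with Chat and without Cck, with 31 single neurons and 41 pools, and 7 single neurons had both peptides.

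Cartpt and Chat were found together in 35 single neurons, where independent calls would give 29.8. Of the 43 single neurons with Cartpt, 35 also had Chat (81.4%, Wilson 95% interval 67.4% to 90.3%), against 33 of 55 without Cartpt (60%, 46.8% to 71.9%). Phi was 0.23, the sixth highest with Cartpt among 121 genes, whose median was 0.04. The median number of assays with a value was 72 with both genes, 66.5 with Cartpt alone, 73 with Chat alone and 61 with neither. The part of yield in this pairing was not tested. By treatment, Chat was detected in 18 of 23 neurons with Cartpt and 21 of 34 without it in naive rats, in 8 of 8 and 3 of 8 in sham rats, and in 9 of 12 and 9 of 13 in RIPC rats. By side, the shares of neurons with Chat were 76.2% with and 58.1% without Cartpt on the left, and 86.4% and 62.5% on the right. Per animal, the difference was 20.3 points in naive replicate 3, 75 in sham replicate 1, 20 in RIPC replicate 2 and -21.4 in RIPC replicate 3. The mean was 23.5 points ± 39.6 (SD, n = 4, adjusted exact sign-flip permutation p = 0.75 over the 3 pairs of genes compared).

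Pools gave the same direction for Cartpt and Chat in every animal that could be used. Chat was detected in 60 of 63 pools with Cartpt (95.2%) and in 12 of 25 without it (48.0%). The difference was 37.5 points in naive replicate 2, 50 in sham replicate 1, 83.3 in sham replicate 2, 20 in sham replicate 4 and 33.3 in RIPC replicate 1. The mean was 44.8 points ± 24.0 (SD, n = 5), with an exact sign-flip permutation p of 0.0625, the smallest that 5 animals allow, and 0.188 after adjustment over the 3 pairs. With single neurons and pools together it was 37.4 points over 8 animals, above 0 in 7 of them (exact permutation p = 0.0156, adjusted 0.0469). This comparison mixed sample kinds, and both genes were more frequent in pools than in single neurons, Cartpt at 71.6% against 43.9% and Chat at 81.8% against 69.4%. The part of that in the difference was not tested. Yield moved with this pairing in pools. Pools with Cartpt had values for a median of 100 other assays and pools without it for 71, and the median phi with Cartpt over all genes in pools was 0.22. Gfap had the highest phi with Cartpt in pools, at 0.56, just above Chat at 0.55, with Gfap in 58 of 63 pools with Cartpt and 10 of 25 without it. In single neurons Gfap was in 35 of 43 with and 44 of 55 without Cartpt, a phi of 0.02. The part of yield and of Gfap in the pairing in pools was not tested.

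Cck and Chat stood in the opposite relation in single neurons. Chat was detected in 11 of 22 single neurons with Cck (50%, Wilson 95% interval 30.7% to 69.3%) and in 57 of 76 without it (75%, 64.2% to 83.4%). The phi of -0.23 was the lowest with Cck of the 121 genes, whose median was 0.03. It was -0.24 in the 54 neurons of naive replicate 3 and -0.21 in the 44 neurons of all other animals. By treatment, Chat was found in 7 of 15 neurons with Cck and 32 of 42 without it in naive rats, and in 4 of 7 and 14 of 18 in RIPC rats. Only 2 animals had enough neurons of each kind for a within-animal difference, at -25 points in naive replicate 3 and -30 in RIPC replicate 3 (exact permutation p = 0.5, the smallest possible). Without the neuron of uncertain title the latter was -50. In pools, where Chat was detected in 72 of 88, phi was 0.13, and Chat was found in 19 of 21 pools with Cck and 53 of 67 without it.

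Among genes detected in 10% to 95% of single neurons, those with the highest phi with Cck were Nmbr, Gad1 and Tac1. Nmbr, the gene of a receptor for the peptide neuromedin B, was in 8 of 22 neurons with Cck and 7 of 76 without it (phi 0.31). Gad1 was in 14 of 22 neurons with Cck (63.6%) and 21 of 76 without it (27.6%), also a phi of 0.31. Tac1, the precursor gene of substance P, was in 16 of 22 and 30 of 76 (phi 0.28). Phi with Cck was 0.23, 0.36 and 0.19 in naive replicate 3 alone for Nmbr, Gad1 and Tac1, and 0.44, 0.30 and 0.38 in all other animals together, a value that also takes in differences between animals. In pools phi with Cck was 0.24, 0.23 and 0.04, beside a median of 0.14 over all genes, and for Gad1 it was -0.67 in the 11 pools of naive replicate 3. Grp, the precursor gene of gastrin-releasing peptide, lay under this range of detection and had a phi of 0.38, with 6 of 22 and 2 of 76. These are descriptions, as the genes were ranked on the same neurons.

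Cck was found in single neurons of 4 animals, in which its pairing with Gad1 varied. In naive replicate 3, Gad1 was in 8 of 14 neurons with Cck and 8 of 40 without it. In RIPC replicate 3 it was in 5 of 6 and 4 of 5, so most neurons of that animal had Gad1, with or without Cck. It was in 1 of 1 and 1 of 2 in naive replicate 2, and in 0 of 1 and 2 of 9 in RIPC replicate 2. Gad2 had a phi with Cck of 0.33 in naive replicate 3 and 0.03 in all other animals. Gad1 or Gad2 was in 17 of 22 neurons with Cck (77.3%) and 34 of 76 without it (44.7%). Read together with Chat, Cck was detected in 9 of 17 neurons with Gad1 and without Chat (52.9%), in 5 of 18 with both (27.8%), in 6 of 50 with Chat alone (12%) and in 2 of 13 with neither (15.4%). Gad1 was picked by its phi with Cck, and Chat had the lowest, in these same neurons of all animals, so these counts restate the pairings and add no support to them.

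In the same range of detection, the genes with the highest phi with Cartpt were Galr1, Hcn4 and Adra1a. Galr1, which encodes a receptor for galanin, was in 30 of 43 neurons with Cartpt and 20 of 55 without it (phi 0.33). Hcn4, a channel gene of the hyperpolarization-activated current that sets firing rhythm, was in 31 of 43 and 26 of 55 (phi 0.25). Adra1a, an adrenergic receptor gene, was in 33 of 43 and 29 of 55 (phi 0.25). For Galr1 phi was 0.11 in naive replicate 3 and 0.57 in the other animals together, so this pairing rested mostly on the latter. For Hcn4 it was 0.22 and 0.32, and for Adra1a 0.24 and 0.28.

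**Figure D5:**
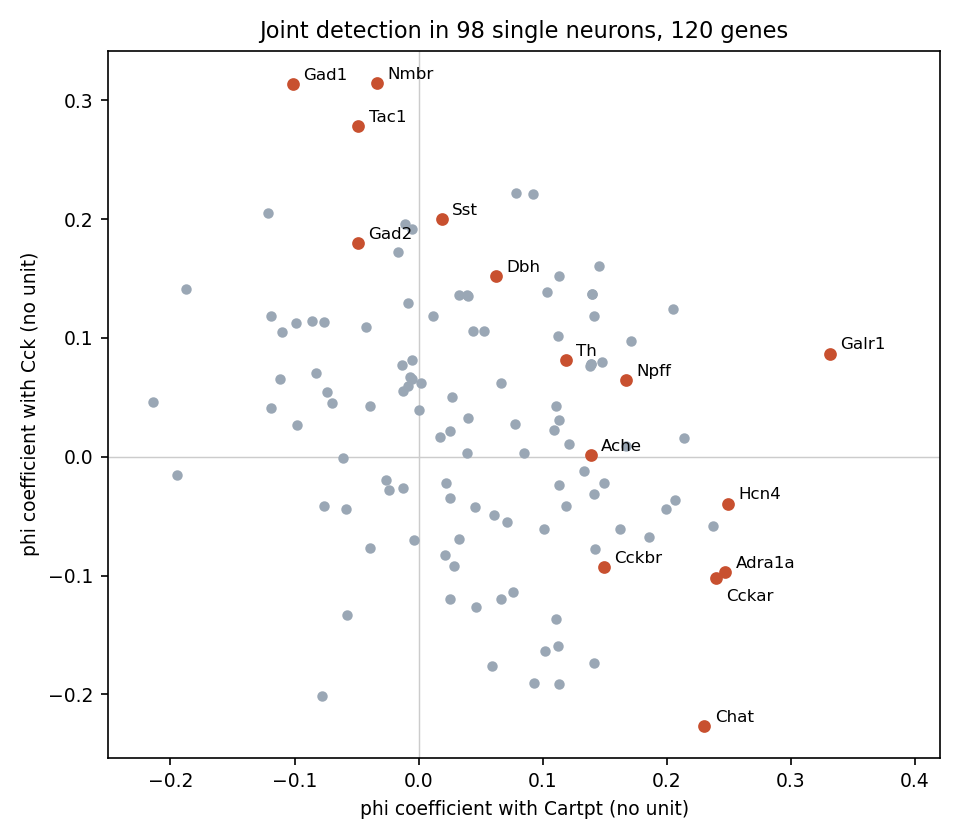
Phi coefficient of joint detection with Cartpt (horizontal axis) and with Cck (vertical axis) in 98 single neurons, each point 1 of 120 genes detected in 10% to 95% of them. Chat lies at 0.23 with Cartpt and -0.23 with Cck, and Gad1 at -0.10 and 0.31.

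With Cartpt, the GABA genes lay slightly below 0 in phi over all single neurons, and the catecholamine genes above it. Gad1 was in 13 of 43 neurons with Cartpt and 22 of 55 without it (phi -0.10), and Gad2 in 19 of 43 and 27 of 55 (phi -0.05). Th, the gene of the first enzyme of catecholamine synthesis, had a phi of 0.12 with Cartpt and 0.08 with Cck. With Cartpt it was -0.02 in naive replicate 3 and 0.28 in the other animals together. Dbh, which encodes the enzyme that makes noradrenaline, had values of 0.06 and 0.15. Ache, the gene of the enzyme that breaks down acetylcholine, was in 89 of 98 single neurons and had a phi of 0.14 with Cartpt and 0.00 with Cck. Of these 6 transmitter genes, 4 had a phi above 0 with Cartpt and 5 with Cck, beside 79 and 73 of the 121 genes.

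Of the panel's 14 other peptide precursor genes, 6 were detected in 10% to 95% of single neurons. Cartpt was the fourth most frequent of the 16 precursors in single neurons, after Agt, the angiotensin precursor, Fstl1 and Tac1, at 81.6%, 54.1% and 46.9%. Cck was the eighth, after Sst, Nppa and Npff at 40.8%, 28.6% and 26.5%. Neighbours in this order had overlapping Wilson 95% intervals, except Agt and Fstl1, and Cck and Grp, which was in 8.16% of neurons. With Cartpt, phi over the 6 frequent precursors ran from -0.05 for Tac1 to 0.17 for Npff, and 4 of 6 were above 0. With Cck it ran from -0.19 for Fstl1 to 0.28 for Tac1, and 4 of 6 were above 0. Sst, the somatostatin precursor, was in 13 of 22 neurons with Cck and 27 of 76 without it (phi 0.20), and in 18 of 43 with Cartpt and 22 of 55 without it (phi 0.02). The phi of Sst with Cartpt was -0.19 in naive replicate 3 and 0.23 in the other animals together.

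The receptors of cholecystokinin differed in how widely they were found. Cckbr was detected in 70 of 98 single neurons (71.4%) and 83 of 88 pools, and Cckar in 21 of 98 (21.4%) and 42 of 88. Cckar was in 0 of 3, 2 of 10 and 3 of 11 pools of the naive animals. In sham animals it was in 71.4%, 9.09%, 81.8% and 76.5% of pools, and in RIPC animals in 12.5%, 87.5% and 50%. Except for sham replicate 2, the sham animals lay above all naive animals. Sham minus naive was 43.9 points (SE 18.9, unadjusted p = 0.0319, limma adjusted p = 0.932; exact permutation p = 0.114).

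Cckbr was in 100% of the pools of each RIPC animal and in 66.7%, 90% and 90.9% of those of the naive animals. Of the 130 genes, 4 (3.08%) had every RIPC animal above every naive animal, and the difference for Cckbr was 17.5 points (SE 13.4, adjusted p = 0.996). In single neurons Cckbr was in 2 of 3 and 44 of 54 of naive replicates 2 and 3, in 3 of 7, 2 of 3, 0 of 1 and 5 of 5 of the sham animals, and in 3 of 4, 6 of 10 and 5 of 11 of the RIPC animals, so the groups overlapped. Within single neurons, Cckar was in 14 of 43 with Cartpt and 7 of 55 without it (phi 0.24), at -0.08 in naive replicate 3 and 0.49 in the other animals. With Cck, Cckar was in 3 of 22 and 18 of 76 (phi -0.10), and Cckbr in 14 of 22 and 56 of 76 (phi -0.09).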

How the data were processed

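The authors deposited 1 table of raw threshold cycles (Ct), a score of 168 assays in 218 columns with no normalization. Assays below detection have no value. Per the study's methods, captured neurons were reverse transcribed, preamplified and run on 3 microfluidic chips. Which chip held which sample was not given in the sources used here, and no chip effect was fitted. The labels gave group, animal, side and cell number. Second runs of 5 single neurons were averaged with the first, with a gene detected if either run had a value. Samples with at least 25% of the assays were kept. The methods state a stricter rule, under which samples with over 50% of the assays undetected were dropped. On the deposited table that rule leaves 84 columns, while 25% leaves 190, the total the methods count as passed, though with another split by group. The 50% limit was an alternative. The methods count 3 rats in the sham cohort, and the labels name 4, which were used.

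Each animal gave 1 share of pools with a value and 1 mean level over at least 2 pools with a value per gene. These were fitted with limma 3.58.1 in R 4.3.3 over all genes detected in 10% to 95% of pools (or, for level, measured in at least 2 animals per group), two-sided, with Benjamini-Hochberg adjustment, after the fit had been tested on simulated data. Members were also compared by exact permutation over animals. P-values measure the spread between rats, and precision is limited by their number. No column was without a sample. Shares of single samples have Wilson 95% intervals. The members, lists and limits were chosen with earlier results of these data known. Named genes were Cartpt, Cck, Chat, the 2 receptors, the 3 genes with the highest phi with each peptide, and fixed lists of peptide precursor, transmitter and marker genes.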

Additional observations from a re-analysis of the deposited data

Results flagged for a closer look

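Among the left minus right differences of the 9 animals, 2 values stood apart from the others. Cck in naive replicate 2 had a difference in share of -66.7 points, while the other animals ranged from -28.6 to 8.33. Cartpt in sham replicate 2 had a difference in level of 5.27 cycles, with the others between -1.54 and 0.89. It took in 1 right pool at a Ct of 26.5, and was 2.81 cycles with Ct values above 20 left out. In that setting the others lay between -1.09 in sham replicate 4 and 2.09 in sham replicate 1. The measure was the gap to the nearest other value as a part of the full range, at 0.51 for Cck and 0.64 for Cartpt. Chance sets apart about 1 in 20 groups by this measure.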

How the results depend on the processing

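The share of Cck in pools kept its direction for RIPC minus naive and sham minus naive in every setting tried. RIPC minus sham turned to 21.5 points in single neurons alone. No gene was called in limma, except 1 for RIPC minus naive in share at the 50% sample limit and 1 each for both RIPC contrasts in level with 1 pool per animal allowed. The Cartpt share turned sign for sham minus naive at the 50% limit (-18.0 points), with animals weighted by pools or Fisher's test (-7.43) and with Ct above 20 as not detected (-4.33). It turned for RIPC minus naive with every sample (-3.41), single neurons and pools together (-1.15), weights or Fisher's test (-18.1) and on the arcsine scale (-0.0166 radians), and for RIPC minus sham at the 50% limit (21.1) and without late Ct (7.08). The Cartpt level turned for sham minus naive in single neurons (1.14 cycles) and without late Ct (0.0113). It turned for RIPC minus naive in single neurons (-0.27), with both kinds together (-0.0169), with 1 pool allowed (-0.43) and in the methods' t-test (-0.11), and for RIPC minus sham in single neurons (-1.41). The Cck level, sham minus naive, turned with both kinds together (-0.92), with undetected pools set below the lowest level (-0.29) and without late Ct (-1.19). The Cartpt side share turned with every sample (4.40) and in single neurons (6.56), and the Cck side level without centring (0.27). Cck with minus without Cartpt turned with every sample (7.51), in pools (19.2) and together (4.58), and Chat with minus without Cartpt passed its threshold together (37.4), a setting that mixes sample kinds. The causes were not tested. At the 50% limit, the rule the methods state, Cck was at -27.2 points for sham minus naive, -29.4 for RIPC minus naive and -2.26 for RIPC minus sham, the Cartpt level for sham minus naive at -0.0644 cycles, and the Cck side share at -25 points (exact permutation p = 0.188). Joint detection could then be compared within 1 animal only.

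Leaving out 1 animal at a time gave, for sham minus naive, RIPC minus naive and RIPC minus sham, Cartpt shares of -13.6 to 15.2, -14.6 to 25.7 and -15.6 to 21.9 points. It gave Cck shares of -18.7 to -2.50, -36.3 to -27.5 and -29.6 to -13.4, and Cartpt levels of -1.06 to -0.91, -0.61 to 0.77 and 0.38 to 1.77 cycles. The Cck level, sham minus naive, ran from -0.61 to 1.24. By side, the ranges were -7.90 to 0.96 points for the Cartpt share, -18.2 to -8.82 for the Cck share and -0.0871 to 0.76 cycles for the Cartpt level. For joint detection they were -13.02 to 4.37 points for Cck by Cartpt, 6.31 to 38.4 for Chat by Cartpt and -30.0 to -25.0 for Chat by Cck. The replicate numbers did not pair the animals (r over genes between -0.33 and 0.37). With the replicate block, Cck RIPC minus naive was -32.1 points and Cartpt 2.75, and no call changed.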
